A study of Mus musculus with 12 samples.

Results

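DNA replication and S-phase genes were followed in mouse lung after irradiation. The set holds 42 genes chosen by function (origin, helicase, polymerase, clamp and nucleotide-supply genes, with 3 chromatin genes and the transcription factor gene E2f1), out of 23238 gene symbols measured. All 42 were found by symbol and all 42 passed the filter on low counts, as did 16484 genes in all. RNA was sequenced from 12 lung samples in 4 groups of 3. The controls were not irradiated, and the other samples came from irradiated lung areas 8, 11 and 14 days (d) later. The sources used here do not give radiation dose, mouse strain, age, sex or the site of the control samples. The labels number the replicates without saying that they are separate animals, so the p-values cover the spread among these samples only, and this spread may be technical.

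Before a cell divides it copies its genome once, in S phase. The origin recognition complex, Cdc6 and Cdt1 load rings of the MCM proteins onto DNA, and Cdc45 and the GINS complex turn each ring into an active helicase. Primase and the polymerases then make the new strands, held to DNA by the sliding clamp PCNA, while other enzymes join the fragments and supply nucleotides. Many of these genes are transcribed in bursts under E2F factors, and most cells of the adult lung are not dividing. In whole tissue, fewer cells of a type and less RNA per cell cannot be told apart, nor can more cycling cells and more RNA per cycling cell.

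Most of the replication genes that changed were higher after irradiation, and E2f1 was the exception. At 8 d, 16 of the 42 were higher and 1 was lower (adjusted p under 0.05 in the quasi-likelihood test of edgeR, 3 libraries per group, adjusted by Benjamini-Hochberg over all genes tested), where 23.6% of all genes were called, 13% higher and 10.6% lower. At 11 d, 24 were higher and 1 lower, beside 37.2% of all genes called, 19.4% higher and 17.8% lower. At 14 d, 19 were higher and 1 lower, beside 38.9% called, 20% higher and 18.9% lower. The median log2 change of the 42 genes was 0.34 at 8 d, 0.62 at 11 d and 0.47 at 14 d, while the median of all genes tested lay between -0.01 and 0.01. Changes were modest in size: 3 genes were called higher with at least a doubling at 8 d, 10 at 11 d and 7 at 14 d. Tested jointly for a difference anywhere between the 4 groups, 22 of the 42 were called, beside 39.2% of all genes. The 3 comparisons share the same unirradiated libraries and are therefore not independent of each other.

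The same 15 genes were called higher at all 3 times: Cdc6, Mcm2, Mcm3, Mcm5, Mcm10, Gins1, Gins2, Pole, Rfc2, Rfc5, Rrm1, Rrm2, Tk1, Chaf1a and Uhrf1. Of all genes tested, 9.92% were called higher at all 3 times. Another 4 (Cdt1, Mcm6, Cdc45 and Fen1) were called at 11 d and 14 d, Chaf1b at 8 d and 11 d, and 4 (Prim1, Pcna, Rfc4 and Lig1) at 11 d alone. A missed threshold does not show that a gene did not change. The remaining 17 genes were called at no time. Levels are given as CPM, counts scaled to a common library size. For 20 genes all 9 irradiated libraries lay above all 3 unirradiated ones, beside 13.6% of all genes tested, and for E2f1 all 9 lay below, beside 13.3%. Of the irradiated group means, the highest was at 11 d for 25 genes, at 8 d for 10 and at 14 d for 7. Library 11 d replicate 1 was the highest of its group for 34 of the 42 genes. Without it 21 genes were called at 11 d in place of 25, and Pcna, Prim1, Lig1 and E2f1 were lost. The call count at 8 d fell from 17 to 11 without unirradiated replicate 1 and to 10 without unirradiated replicate 2.

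**Figure D1:**
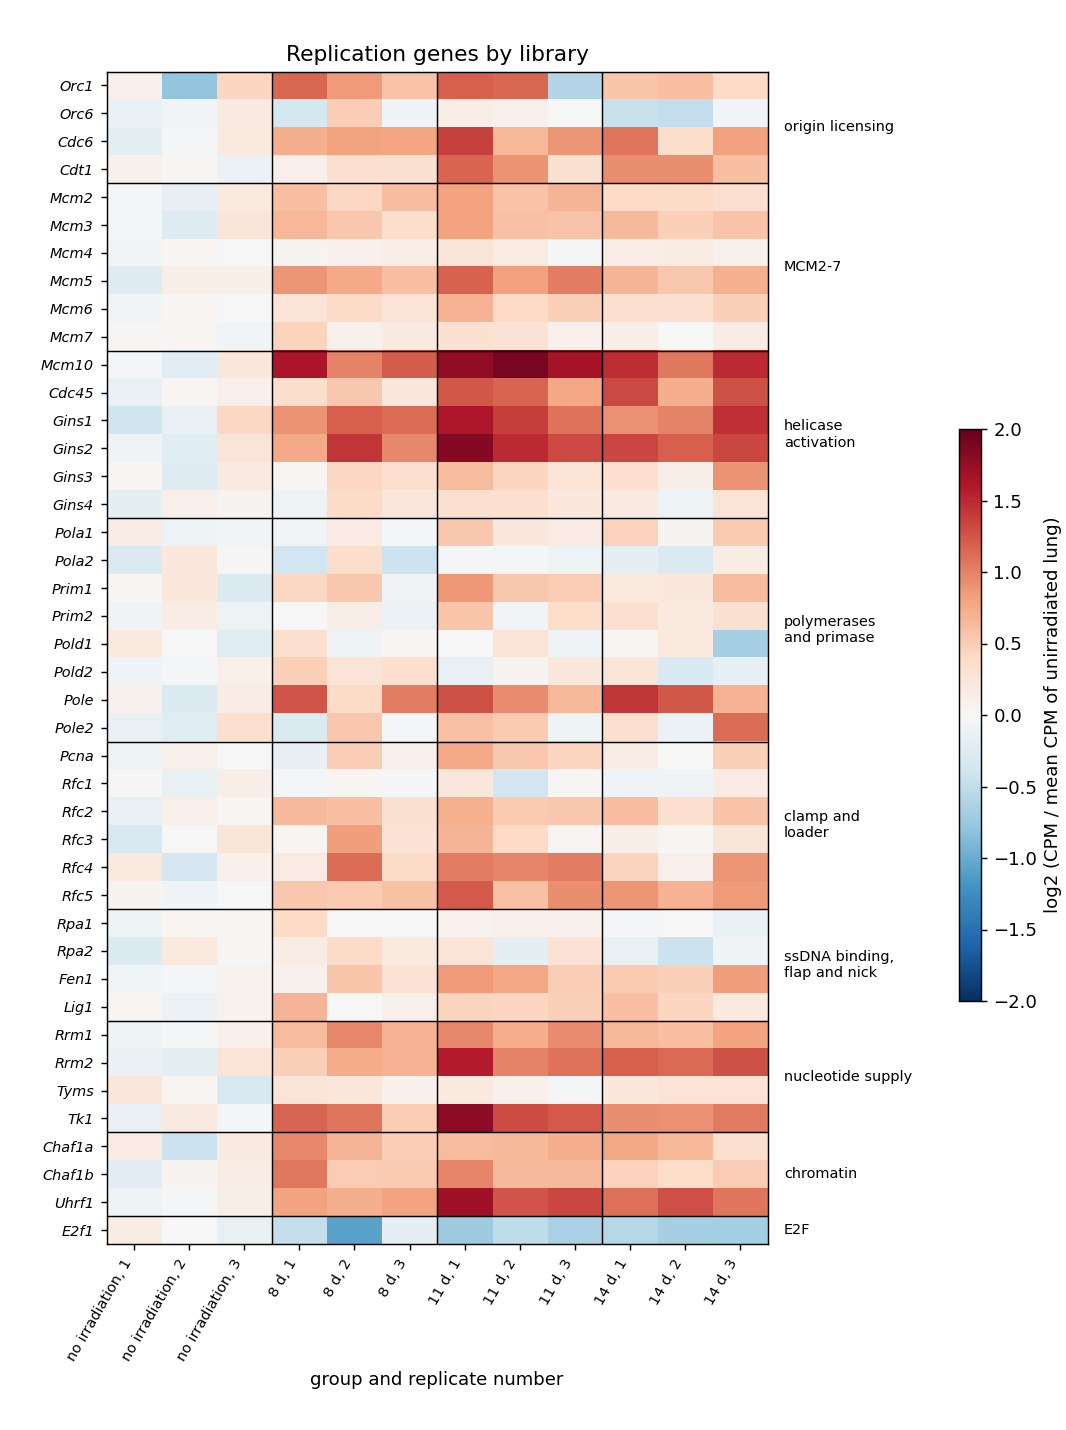
Level of each of the 42 genes (rows, grouped by role) in each of the 12 libraries (columns), as log2 of the scaled counts (CPM) over the mean CPM of unirradiated lung. E2f1 is below the control mean in all 9 irradiated libraries, and Mcm10, Gins2 and Uhrf1 are above it in all 9.

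Markers of other cells moved at the same times. Ptprc, which encodes the leukocyte protein CD45, ran from 91.3 to 140 CPM in controls and from 262 to 293 at 8 d. Its range was 301 to 473 CPM at 11 d, and 14 d libraries held 404 to 505. All 7 T cell markers measured were higher at each time, and their summed level went from between 44.5 and 57.2 CPM to between 177 and 223 at 11 d. Macrophage and monocyte markers were higher in 4 of 7 and lower in 1 at 8 d, and higher in 6 of 7 at 11 d and 7 of 7 at 14 d. B cell markers were higher in 4 of 4 at 8 d and in 0 of 4 at 11 d and at 14 d. NK cell markers were higher in 4 of 4 at 8 d and at 11 d and in 3 of 4 at 14 d. Alveolar macrophage markers were lower in 4 of 5 at each time, with 1 of 5 higher at 8 d and at 11 d. Endothelial markers were lower in 3 of 6 at 8 d and in 6 of 6 at 11 d and at 14 d, with a sum of 3180 to 3520 CPM in controls and 828 to 1070 at 14 d. Of all genes 13%, 19.4% and 20% were higher at 8, 11 and 14 d, and 10.6%, 17.8% and 18.9% lower. No marker of these lists was at 0 in any library, and their part in the changes of the replication genes was not tested.

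Origin licensing is the loading step. Cdc6, which loads the MCM ring, was at 2.26, 2.51 and 2.93 CPM in the unirradiated libraries. It was at 4.26, 4.5 and 4.46 CPM at 8 d, at 6.64, 4.08 and 4.72 at 11 d, and at 5.40, 3.28 and 4.55 at 14 d. All 9 irradiated values were above the 3 control values, with log2 changes of 0.78 (SE 0.23, adjusted p = 0.027), 1.0 (SE 0.23, adjusted p = 0.004) and 0.78 (SE 0.23, adjusted p = 0.017). Without any of 4 libraries (8 d replicate 2 or 3, unirradiated replicate 1 or 2) Cdc6 was not called at 8 d, and without 14 d replicate 1 or unirradiated replicate 1 it was not called at 14 d. Cdt1, its partner, was at 3.99, 3.84 and 3.47 CPM in controls and at 4.03, 4.73 and 4.67 at 8 d, a log2 change of 0.25 (SE 0.21) that was not called. At 11 d it was at 8.41, 7.03 and 4.67 CPM and at 14 d at 7.20, 7.17 and 5.72, with log2 changes of 0.83 (SE 0.21, adjusted p = 0.0065) and 0.83 (SE 0.21, adjusted p = 0.0058). Between 8 d and the later times Cdt1 was not called (adjusted p = 0.18 and 0.079). The origin recognition subunit genes Orc1 and Orc6 were not called at any time. Orc1 was too sparse for a firm statement, with 9 to 38 counts per library and standard errors of 0.43, and Orc6 had log2 changes of 0.07, 0.07 and -0.32 (SE 0.19 each).

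Of the 6 subunit genes of the MCM helicase ring, 4 were called higher at 11 d and at 14 d, beside 19.4% and 20% of all genes. Differences in change between the subunits were not tested. Mcm5 showed the highest fold of the 6 genes at each time. It was at 12.5, 16.2 and 16.1 CPM in controls, 27.4, 25.3 and 22.6 at 8 d, 33.8, 26.3 and 30.2 at 11 d, and 23.8, 21.7 and 24.5 at 14 d. Its log2 changes were 0.75 (SE 0.14, adjusted p = 0.0019), 1.01 (SE 0.15, adjusted p = 1e-04) and 0.65 (SE 0.14, adjusted p = 0.0026), with no overlap between irradiated and control libraries. Mcm2 was at 21.0, 19.3 and 24.6 CPM in controls, 32.7, 28.9 and 33.3 at 8 d, 37.8, 32.1 and 34.6 at 11 d, and 28.6, 28.3 and 27.3 at 14 d. Mcm2 rose at all 3 times, by a log2 of 0.55, 0.69 and 0.38 (SE 0.13 each), and without any of 4 libraries (unirradiated replicate 1 or 2, 14 d replicate 1 or 2) the call at 14 d was lost, as it was with no filter on low counts.

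Mcm3 was at 39.6, 33.9 and 48.2 CPM in controls, 64.0, 58.9 and 51.9 at 8 d, 70.6, 61.1 and 60.5 at 11 d, and 63.4, 56.7 and 60.3 at 14 d. It rose by a log2 of 0.52, 0.66 and 0.57 (SE 0.14 each), and its irradiated libraries all lay above the controls. The call of Mcm3 at 8 d was lost without unirradiated replicate 1 or 2. Mcm6 was at 39.8, 42.4 and 41.3 CPM in controls, 49.9, 54.0 and 49.7 at 8 d, 66.8, 54.5 and 57.3 at 11 d, and 52.1, 52.0 and 57.4 at 14 d. Mcm6 missed the threshold at 8 d (log2 change 0.31, SE 0.11, adjusted p = 0.057) although its libraries did not overlap with the controls, and was higher at 11 d (0.53, adjusted p = 0.0021) and 14 d (0.39, adjusted p = 0.013). Without 14 d replicate 3 or unirradiated replicate 1 the call at 14 d was lost.

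Mcm4 and Mcm7 were called at no time. Mcm4 was at 39.1, 42 and 41.2 CPM in controls, 42.5, 43.1 and 44.6 at 8 d, 48.1, 45.6 and 40.1 at 11 d, and 44.5, 45.3 and 43.4 at 14 d. Its log2 changes were 0.09, 0.13 and 0.12 (SE 0.11 each). Mcm7 was at 36.0, 36.6 and 34.2 CPM in controls, 48.7, 37.7 and 40.2 at 8 d, 44.0, 43.4 and 38.1 at 11 d, and 39.1, 35.6 and 39.4 at 14 d, with log2 changes of 0.24, 0.23 and 0.10 (SE 0.12 each). Per kilobase of annotated exon, Mcm5 stood at 0.288, 0.347 and 0.352 of the level of Mcm4 in the 3 control libraries. The same ratio was 0.58, 0.528 and 0.456 at 8 d, 0.632, 0.519 and 0.678 at 11 d and 0.481, 0.431 and 0.508 at 14 d. This pair was picked after its values were seen, so the ratio is a description with no test. Mean levels per kilobase of exon in controls ran from 3.11 CPM for Mcm2 and 3.74 for Mcm5 through 8.04 for Mcm7 and 8.82 for Mcm6 to 10.8 for Mcm3 and 11.4 for Mcm4. In controls the ranges of Mcm2 and Mcm5 overlapped, though Mcm5 was above Mcm2 within each library, narrowly in replicate 1 (3.13 against 3.02). Mcm3 changed order with both Mcm6 and Mcm4 between libraries, so that the order of Mcm3 and these neighbours is not resolved. At 11 d the means were 5.01, 7.54, 9.45, 12.8, 17.1 and 12.4 in the same gene order. The lengths join all exons that GENCODE M21 gives a gene, and the annotation used for the counts is not given in the sources used here.

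**Figure D2:**
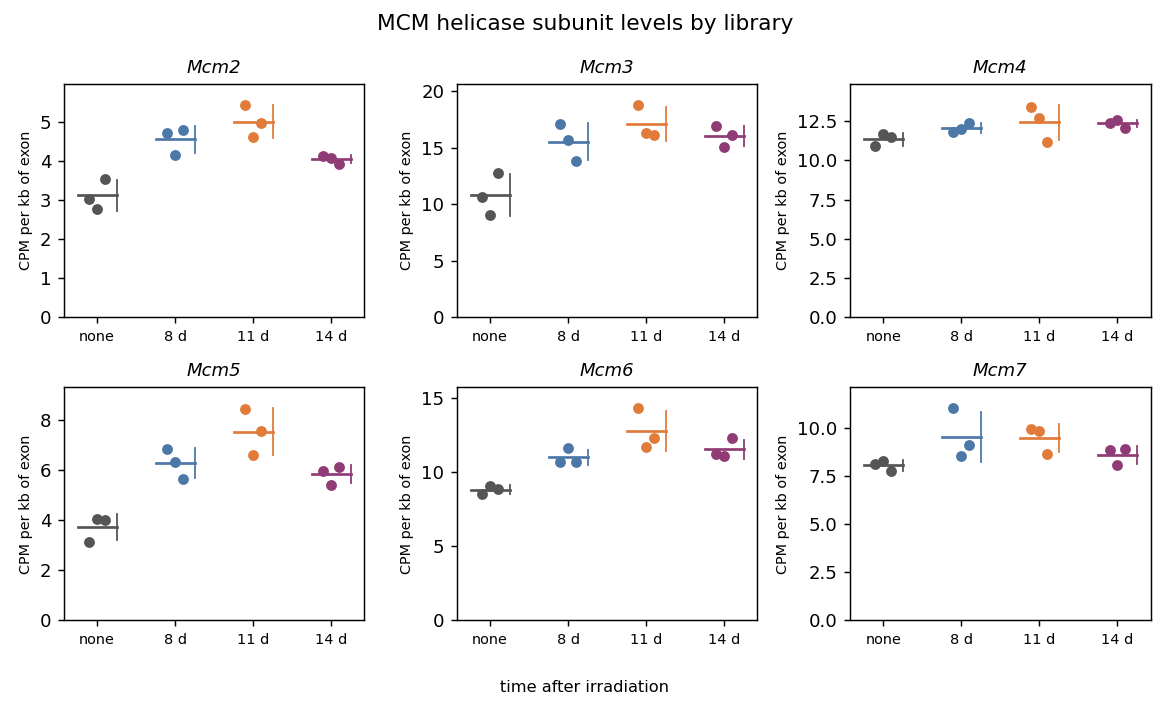
Level of the 6 MCM subunit genes by library, in CPM per kilobase of exon, without irradiation and at 8, 11 and 14 d (points: libraries; horizontal line: mean; vertical line: SD of 3 libraries). The points of Mcm5 separate from the controls at each time, and those of Mcm4 at 11 d overlap with them.

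Promoter sequence was compared because E2F sites are the feature this gene family is known for. RefSeq windows (GRCm38.p6) of 250 bases before to 50 after a start were found for 35 of the 42 genes. The E2F motif was searched as TTTCCCGC, TTTGGCGC, TTTCGCGC and TTTGCCGC on both strands. It was present in 14 of the 35 genes (40.0%), beside 4.1% of the tested genes that had a window and 2.6% of all genes with one. In 22 mitosis genes kept as a comparison, 19 had a window and 1 of these held the E2F motif, while 13 of the 19 (68.4%) held the letters TTTGAA, known as the CHR element. TTTGAA was found in 5 of the 35 replication genes (14.3%) and 15.0% of tested genes. The E2F letters were in 7 of 20 genes called higher at 11 d and in 7 of 14 genes not called then. Shown are upstream stretches of 60 bases from Mcm5 and Mcm6, both higher at 11 d, and from Pola1, which was not called. Capitals mark the E2F letters. In Mcm5 (chr8:75109334-75109393, plus strand) 2 matches on opposite strands overlap. The Mcm6 stretch is chr1:128359719-128359778 (minus strand) and that of Pola1 is chrX:93632260-93632319 (minus strand).
Mcm5: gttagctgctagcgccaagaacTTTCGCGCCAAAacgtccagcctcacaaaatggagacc
Mcm6: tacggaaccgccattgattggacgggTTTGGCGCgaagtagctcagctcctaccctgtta
Pola1: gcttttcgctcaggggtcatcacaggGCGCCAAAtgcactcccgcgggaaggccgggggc

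Of the 42 genes, Mcm10 had the largest log2 change at each time. Mcm10, whose product helps to start the loaded helicase, was at 2.45, 2.18 and 2.96 CPM in controls, 7.82, 5.04 and 5.88 at 8 d, 8.66, 9.42 and 7.98 at 11 d, and 7.06, 5.24 and 7.14 at 14 d. The lowest irradiated library was well above the highest control, and the log2 changes were 1.30 (adjusted p = 0.00053), 1.78 (adjusted p = 2e-05) and 1.35 (adjusted p = 0.00014; SE 0.21 each). Gins2, a subunit of the GINS complex, was at 3.81, 3.39 and 4.77 CPM in controls, 6.75, 10.7 and 7.79 at 8 d, 14.2, 11.2 and 10 at 11 d, and 10.1, 9.17 and 10.1 at 14 d. It rose by a log2 of 1.07, 1.56 and 1.29 (SE 0.20 each). Opposite to Gins2 lies Gse1, whose exons cover 67.3% of those of Gins2. Whether the counting used strand is not given in the sources used here, and Gse1 itself had log2 changes of -0.02, -0.29 and -0.04, none of them called.

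In the GINS complex Gins1 rose by a log2 of 1.08, 1.38 and 1.14 (SE 0.25 each), while Gins3 (0.27, 0.45 and 0.49) and Gins4 (0.18, 0.29 and 0.12) were called at no time. Differences in change between the GINS genes were not tested. Cdc45, which joins MCM and GINS in the active helicase, was called at 11 d and 14 d but not at 8 d, although all its irradiated libraries lay above the controls. It was at 4.22, 4.83 and 5.02 CPM in controls, 6, 6.80 and 5.5 at 8 d, 11.1, 10.5 and 8.04 at 11 d, and 11.7, 7.77 and 11.3 at 14 d. Its log2 change was 0.38 at 8 d (SE 0.19, adjusted p = 0.18), 1.08 at 11 d (adjusted p = 0.00058) and 1.12 at 14 d (adjusted p = 3e-04).

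Polymerase and primase genes were mostly not called. Of 8, only Pole was called at 8 d and at 14 d, and only Pole and Prim1 at 11 d. These shares of 12.5%, 25% and 12.5% at 8, 11 and 14 d stood beside 23.6%, 37.2% and 38.9% of all genes called. Pole, the catalytic subunit of the leading-strand polymerase epsilon, was at 4.41, 3.43 and 4.59 CPM in controls, 9.89, 5.40 and 8.42 at 8 d, 10, 8.01 and 6.58 at 11 d, and 11.2, 9.81 and 6.72 at 14 d. Its groups did not overlap with the controls, and its log2 changes were 0.93, 0.99 and 1.15 (SE 0.25 each). Without 8 d replicate 1 or unirradiated replicate 2 Pole was not called at 8 d. Prim1, the catalytic primase subunit, was at 8.51, 9.56 and 6.83 CPM in controls, 11.0, 12.1 and 7.92 at 8 d, 15.1, 12.1 and 11.8 at 11 d, and 9.49, 9.62 and 12.9 at 14 d. It was called at 11 d (log2 change 0.65, SE 0.20), where its libraries lay above the controls, and at 8 d and 14 d they overlapped. That call was lost without 11 d replicate 1 or unirradiated replicate 3. Pola1, Pola2, Prim2, Pold1, Pold2 and Pole2 had log2 changes between -0.10 and 0.53 with standard errors of 0.15 to 0.32. Pole2 encodes a second subunit of the same enzyme as Pole and had log2 changes of 0.12, 0.37 and 0.53 (SE 0.32 each).

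Of the 6 clamp and loader genes, 2 (33.3%) were called at 8 d, 4 (66.7%) at 11 d and 2 (33.3%) at 14 d. Of all genes 23.6%, 37.2% and 38.9% were called at these times. Pcna, the sliding clamp, was the most abundant gene of this role in CPM per kilobase of exon. It was at 89.3, 102 and 95.5 CPM in controls, 85.4, 135 and 102 at 8 d, 162, 139 and 128 at 11 d, and 106, 95.1 and 133 at 14 d. Pcna was called only at 11 d (log2 change 0.58, SE 0.17, adjusted p = 0.015), the only time when its libraries did not overlap with the controls. At 8 d its change was 0.17 (SE 0.17), and without 8 d replicate 2 it was -0.03. The call at 11 d was lost without 11 d replicate 1 or unirradiated replicate 1. The joint test did not call it (adjusted p = 0.057). GENCODE M21 lists 2 processed pseudogenes of Pcna and 1 of Tyms, so some reads of these genes may be assigned uncertainly.

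Rfc5, a loader subunit, was at 9.98, 9.08 and 9.61 CPM in controls, 13.9, 13.7 and 14.3 at 8 d, 22.4, 14.3 and 18.2 at 11 d, and 17.7, 15.5 and 17.2 at 14 d. It rose by a log2 of 0.55, 0.94 and 0.81 (SE 0.15 each) with no overlap with controls. The 8 d call of Rfc5 was lost without 8 d replicate 3 or unirradiated replicate 2. Rfc2 was at 24.5, 29.1 and 28 CPM in controls, 42.7, 41.2 and 33.7 at 8 d, 44.3, 38.9 and 39.4 at 11 d, and 41.7, 33.8 and 40.5 at 14 d. It rose by a log2 of 0.53, 0.59 and 0.51 (SE 0.14 each), and its 8 d call was lost without unirradiated replicate 1. The opposite-strand leukocyte adaptor gene Lat2 shares 15.1% of the exon bases of Rfc2 and rose by a log2 of 1.94, 3.32 and 3.48. Reads of Lat2 and Rfc2 in that stretch cannot be told apart without a stated strand setting. Rfc4 was called at 11 d alone (log2 change 1.01, SE 0.25), Rfc3 at no time (0.43, 0.40 and 0.14, SE 0.22 each), and Rfc1, the large loader subunit, had log2 changes of -0.01, -0.02 and 0.01 (SE 0.15 each).

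The genes of lagging-strand finishing were called at 11 d or later, and the single-strand binding genes at no time. Fen1, which cuts the flaps, was at 10.7, 10.9 and 11.6 CPM in controls, 11.8, 16.3 and 13.5 at 8 d, 20.1, 18.9 and 15.6 at 11 d, and 15.9, 15.5 and 19.9 at 14 d. It was called at 11 d (log2 change 0.72, adjusted p = 0.0026) and 14 d (0.63, adjusted p = 0.0056; SE 0.16 each). A noncoding gene on the opposite strand, Gm10143, shares 78.8% of the exon bases of Fen1. Lig1, which seals the nicks, was at 34.9, 31.2 and 35.4 CPM in controls, 54.2, 33.7 and 36.3 at 8 d, 45.8, 45.3 and 47.2 at 11 d, and 51.1, 45.7 and 38.8 at 14 d. Its call at 11 d (log2 change 0.45, SE 0.17, adjusted p = 0.048) was lost when any 1 of the 6 libraries compared was left out. Rpa1 and Rpa2, subunits of the single-strand binding protein, had log2 changes of 0.14, 0.09 and -0.05 (SE 0.12 each) and 0.24, 0.14 and -0.20 (SE 0.17 each).

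Nucleotide-supply genes rose at every time except Tyms. Rrm1, the large subunit of ribonucleotide reductase, was at 48.3, 49.9 and 55.0 CPM in controls, 79.6, 99.7 and 82.3 at 8 d, 99.7, 84.3 and 98.2 at 11 d, and 81.0, 77.6 and 89.7 at 14 d. It rose by a log2 of 0.77 (adjusted p = 0.00053), 0.88 (adjusted p = 9.3e-05) and 0.70 (adjusted p = 0.00046), with SE 0.12 to 0.13. Rrm2, the small subunit made in S phase, was at 4.37, 4.24 and 5.78 CPM in controls, 6.65, 8.06 and 7.79 at 8 d, 14.3, 9.56 and 10.2 at 11 d, and 11.0, 10.5 and 11.6 at 14 d. Its log2 changes were 0.64, 1.24 and 1.20 (SE 0.19 each), with every irradiated library above the controls. The call of Rrm2 at 8 d was lost without any of 4 libraries (8 d replicate 2 or 3, unirradiated replicate 1 or 2). Tk1, the salvage kinase for thymidine, rose by a log2 of 0.94, 1.47 and 0.96 (SE 0.21 each). Tyms, the enzyme of thymidylate synthesis, had log2 changes of 0.19, 0.09 and 0.25 (SE 0.14 each), none called.

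The other small subunit of ribonucleotide reductase went the opposite way. Rrm2b, which is known as a p53 target and serves cells outside S phase, was at 39.1, 38.7 and 46.9 CPM in controls, 27.9, 30.4 and 34.7 at 8 d, 30, 29.6 and 29.2 at 11 d, and 28.5, 28.6 and 34.2 at 14 d. It fell by 0.42, 0.49 and 0.45 on the log2 scale (SE 0.13 each), with all irradiated libraries below the controls. The 8 d call of Rrm2b was lost without 8 d replicate 1 or 2 or unirradiated replicate 1 or 3, and with library size as the only scaling. Its 14 d call was lost without 14 d replicate 1 or 2 or unirradiated replicate 3. In the same libraries Cdkn1a, which encodes the kinase inhibitor p21, had a mean of 24.8 ± 4.86 CPM in controls (SD, n = 3). Its mean was 287 ± 6.22 CPM at 8 d, then 208 ± 46.3 at 11 d, and by 14 d 156 ± 13.3. Per kilobase of exon, Rrm2 stood at 0.361 to 0.406 of the level of Rrm2b in controls. The ratio was 0.74 to 0.874 in 8 d libraries, 1.06 to 1.57 in 11 d libraries, and 1.12 to 1.27 in 14 d libraries. The ratio was computed after the values were seen and is given with no test.

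The 3 chromatin genes were all higher at 8 d and 11 d, beside 13% and 19.4% of all genes. Uhrf1, which recruits the maintenance DNA methyltransferase to newly copied DNA, was at 7.16, 7.45 and 8.31 CPM in controls, 13.4, 12.6 and 13.3 at 8 d, 24.8, 18.2 and 19.2 at 11 d, and 16.4, 18.7 and 16.1 at 14 d. Its log2 changes were 0.77 (adjusted p = 0.0016), 1.44 (adjusted p = 6.4e-06) and 1.16 (adjusted p = 2.1e-05; SE 0.15 each). Chaf1a, the large subunit of the histone chaperone CAF-1, was at 10.4, 6.90 and 10.5 CPM in controls, 18.1, 14.9 and 13 at 8 d, 14.4, 14.7 and 15.4 at 11 d, and 15.9, 14.7 and 11.6 at 14 d. Chaf1a rose by a log2 of 0.73, 0.68 and 0.61 (SE 0.19 each). Its exon bases are shared to 52.5% with the opposite-strand gene Ubxn6, which had log2 changes of 0.13, -0.05 and 0.02, none called. Without unirradiated replicate 2 Chaf1a was called at no time, and without 14 d replicate 1 not at 14 d. Chaf1b, its partner, rose by a log2 of 0.72 and 0.77 at 8 d and 11 d and was at 0.45 at 14 d (SE 0.20 each), where it was not called. The 8 d call of Chaf1b was lost without 8 d replicate 1 or unirradiated replicate 1.

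E2f1 (chromosome 2, 154559407 to 154569892, minus strand, GRCm38), whose protein switches on many of the genes above, was lower at all 3 times. It was at 72.8, 65.7 and 59.4 CPM in controls, 47.4, 31.5 and 58.4 at 8 d, 39.7, 46.2 and 42.2 at 11 d, and 44.6, 41.5 and 41.0 at 14 d. Each irradiated library was below each control, by a narrow margin for 8 d replicate 3. The log2 changes were -0.53 (SE 0.18, adjusted p = 0.044), -0.63 (SE 0.18, adjusted p = 0.013) and -0.64 (SE 0.18, adjusted p = 0.01). The call at 8 d was lost with library size as the only scaling, with only the 2 groups in the fit, with a replicate block, and without 8 d replicate 1 or 2 or unirradiated replicate 1 or 2. That at 11 d was lost without 11 d replicate 1 or unirradiated replicate 1, and that at 14 d held when each of the 6 libraries was left out in turn. No exon of another gene overlaps E2f1 in GENCODE M21. Endothelial and most alveolar macrophage markers were also lower, while T cell and most NK cell markers were higher, as given above. The sum of alveolar type 1 markers was 4170 to 4700 CPM in controls and 1850 to 2290 at 14 d. Alveolar type 2 markers were lower in 1 of 5 at 8 d and in 3 of 5 at 11 d and at 14 d. Erythroid markers were lower in 0 of 4 at 8 d, 1 of 4 at 11 d and 4 of 4 at 14 d. Fibroblast markers were lower in 1 of 4 at 8 d and in 2 of 4 at 11 d and at 14 d, with 1 of 4 higher each time. Of all genes 10.6%, 17.8% and 18.9% were lower at 8, 11 and 14 d. From 8 d to 14 d E2f1 changed by a log2 of -0.11 and was not called. Over that interval endothelial markers were lower in 6 of 6, alveolar type 1 in 3 of 4 and type 2 in 1 of 5. Erythroid markers were lower in 2 of 4, fibroblast markers in 0 of 4, and alveolar macrophage markers in 3 of 5 with 1 higher. Of all genes 7.29% were lower then. The part of these lists in the fall of E2f1 was not tested.

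**Figure D3:**
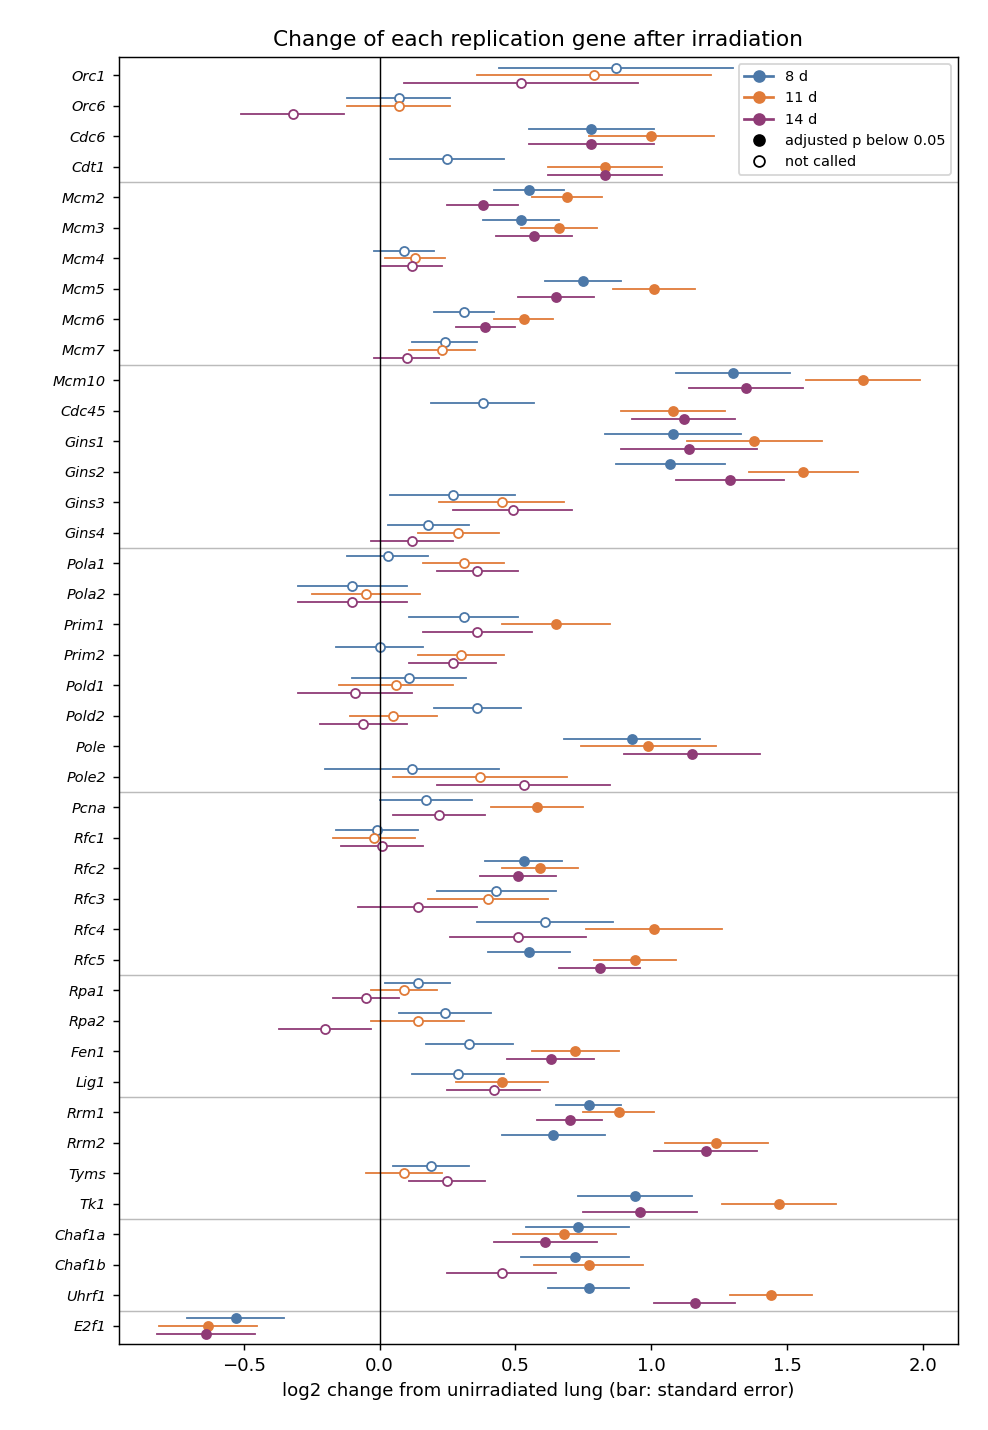
Log2 change of each of the 42 genes from unirradiated lung at 8, 11 and 14 d, with standard errors (filled: adjusted p below 0.05, edgeR; open: not called; grey lines part the roles). Mcm10 reaches 1.78 at 11 d, Rfc1 stays within 0.02 of 0, and E2f1 lies to the left of 0 at each time.

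Other E2F genes did not share one direction; these were singled out after their values were seen. E2f2, like E2f1 an activator, was at 19.9, 20 and 17.6 CPM in controls and between 12 and 15.8 in the irradiated libraries, and fell by 0.45, 0.43 and 0.57 on the log2 scale (SE 0.14 each). E2f3, the remaining activator, rose by a log2 of 0.50, 0.67 and 0.92 (SE 0.17 each). The repressor E2f8 was at 1.66, 1.96 and 2.42 CPM in controls, 5.20, 4.23 and 4.42 at 8 d, 7.31, 4.59 and 4.87 at 11 d, and 6.75, 7.32 and 7.89 at 14 d, with log2 changes of 1.19, 1.48 and 1.86 (SE 0.22 each). E2f7, the related repressor, was called at 11 d (0.91) and 14 d (0.62, SE 0.23 each). E2f4, E2f5 and E2f6 were called at no time. Cyclin E1 (Ccne1), which drives entry into S phase, was at 1.66, 2.40 and 1.59 CPM in controls, 4.64, 6.17 and 4.13 at 8 d, 9.13, 7.73 and 5.65 at 11 d, and 6.93, 7.20 and 7.09 at 14 d. It rose by a log2 of 1.40, 2.0 and 1.91 (SE 0.24 each).

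**Figure D4:**
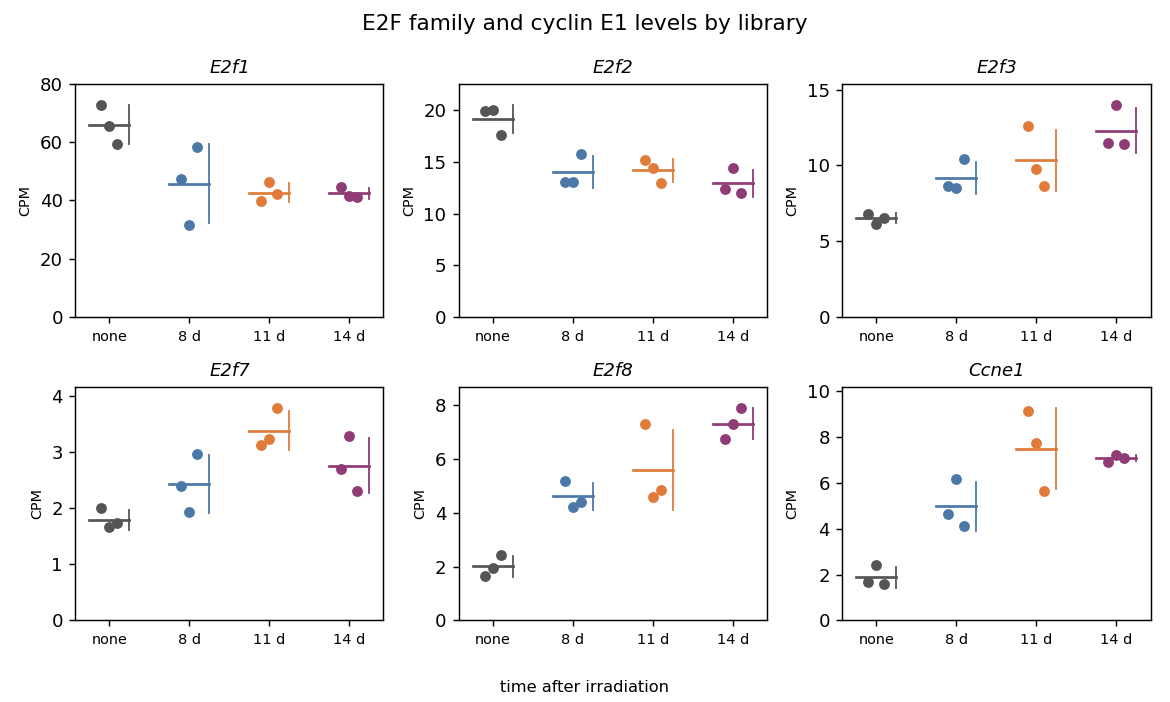
Level in CPM of E2f1, E2f2, E2f3, E2f7, E2f8 and Ccne1 by library, without irradiation and at 8, 11 and 14 d (points: libraries; horizontal line: mean; vertical line: SD of 3 libraries). E2f1 and E2f2 lie below their controls in all irradiated libraries, while E2f3, E2f8 and Ccne1 lie above theirs.

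Among 76 other genes of the pathway, 16 were higher and 6 lower at 8 d, 28 and 4 at 11 d, and 31 and 6 at 14 d, with medians of 0.24, 0.32 and 0.27. In either direction 28.9%, 42.1% and 48.7% of the 76 were called, beside 23.6%, 37.2% and 38.9% of all genes. Of the 15 other origin and helicase factors 2 were higher and 1 lower at 8 d, and 5 (33.3%) higher and 0 lower at 11 d and at 14 d. The shares of all genes were 13%, 19.4% and 20% higher, and 10.6%, 17.8% and 18.9% lower. In either direction the shares of this list (20%, 33.3% and 33.3%) were below those of all genes called (23.6%, 37.2% and 38.9%). Dbf4, which activates the kinase that fires origins, rose by 0.99 at 11 d and 1.1 at 14 d (log2, SE 0.17 each). Ticrr, which helps Cdc45 to load, rose by 1.31 and 1.73 (SE 0.34 to 0.35), but was sparse, with 16 to 82 counts per library. Donson and Orc2 were called higher as well. The 14 d call of Orc2 was lost without any of 5 of the 6 libraries compared (all but 14 d replicate 2), and the 11 d call of Donson without 11 d replicate 1 or unirradiated replicate 2 or 3. Geminin (Gmnn), the inhibitor of Cdt1, had log2 changes of 0.00, 0.19 and 0.17 (SE 0.19 each). Of 21 other replisome factors 2 were higher and 1 lower at 8 d, 14.3% called beside 23.6% of all genes. At 11 d 7 (33.3%) were higher and none lower, beside 19.4% of all genes higher and 17.8% lower. In either direction this share was again below that of all genes called (37.2%). Among the 7 were Clspn (1.12, SE 0.19), the checkpoint mediator at the fork, Asf1b (1.27, SE 0.30), a histone chaperone, and the nuclease gene Dna2 (0.81, SE 0.20). At 14 d 7 were higher and 1, Timeless, a fork protection gene, was lower (-0.41, SE 0.12), a call lost without 14 d replicate 2. The share of the 21 called at 14 d was 38.1%, beside 38.9% of all genes. Of 12 other nucleotide genes 3 were higher and 1 lower at 8 d. At 11 d 5 were higher and 1, Rrm2b, lower, and at 14 d 4 were higher and 2 lower. The shares called were 33.3%, 50% and 50%, beside 23.6%, 37.2% and 38.9% of all genes. Dck, the kinase that salvages deoxycytidine, rose by a log2 of 1.03, 1.90 and 1.72 (SE 0.20 each), and Dctpp1, Samhd1 and Umps were also higher at 11 d and 14 d. Of 28 genes of entry into S phase 9 were higher and 3 lower at 8 d, 11 and 3 at 11 d, and 15 and 3 at 14 d. These shares of 42.9%, 50% and 64.3% called stood beside the 23.6%, 37.2% and 38.9% of all genes. In this list cyclin D1 (Ccnd1) rose by a log2 of 1.46, 1.07 and 0.59 (SE 0.13 each), and Cdkn1c, a cyclin-dependent kinase inhibitor, fell by 0.98, 1.22 and 1.72 on the log2 scale (SE 0.17 each).

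Of 22 mitosis genes, 15 (68.2%) were higher at 8 d, 22 at 11 d and 22 at 14 d, and none was lower. Of all genes 13%, 19.4% and 20% were higher at these times. The medians of the mitosis genes were 0.93, 1.59 and 1.47. Mki67, the marker of cycling cells, averaged 38.9 ± 5.38 CPM in controls (SD, n = 3). Its 8 d mean was 69.5 ± 13 CPM, its 11 d mean 117 ± 40.7 and its 14 d mean 145 ± 11.9. Without unirradiated replicate 2 Mki67 was not called at 8 d. Top2a, which untangles chromosomes before they part, was higher by a log2 of 1.12, 1.83 and 1.64 (SE 0.18 each), Cdk1 by 1.44, 2.16 and 1.79, Tpx2 by 1.04, 1.82 and 1.64, and Kif11 by 1.18, 1.72 and 1.71. The mitosis list was chosen with earlier results of these data known, so its share beside that of all genes is a description only. The difference between the 2 lists was not tested.

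**Figure D5:**
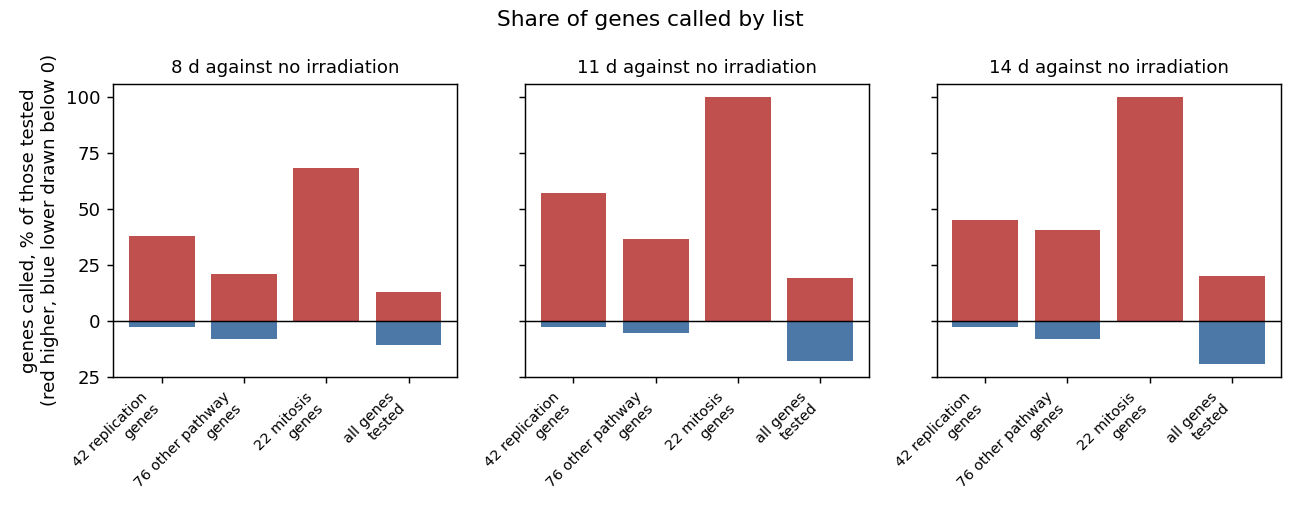
Share of genes called at an adjusted p below 0.05 in each comparison with unirradiated lung (% of genes tested; higher drawn up in red, lower drawn down in blue), for the 42 replication genes, 76 other pathway genes, 22 mitosis genes and all 16484 genes. At 11 d, 24 of the 42 replication genes and 22 of 22 mitosis genes were higher, beside 19.4% of all genes. The mitosis and other pathway lists were chosen with earlier results of these data known.

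Between the irradiated times few replication genes were called. Between 8 d and 11 d, 1 of 42 was called, Uhrf1 (log2 change 0.66, SE 0.14, adjusted p = 0.03), where 2.14% of all genes were called. Between 11 d and 14 d 0 of the 42 were called by edgeR, by DESeq2 or by limma-voom, where edgeR called 1.8% of all genes. At an unadjusted p under 0.05 by edgeR there were 4 (Mcm2, Mcm5, Pcna and Tk1), 9.52% of the 42 beside 16.3% of all genes. The fitted level was lower at 14 d for 35 of the 42, beside 51.2% of all genes. From 8 d to 11 d 10 of the 42 (23.8%) had an unadjusted p under 0.05 by edgeR, beside 15.8% of all genes. The fitted level was lower at 11 d than at 8 d for 28.6% of the 42, beside 51.4% of all genes. From 8 d to 14 d 6 (14.3%) had such an unadjusted p, beside 28.2%, and 42.9% were lower at 14 d, beside 52.5%. Between 8 d and 14 d Cdc45 alone was called (0.75, SE 0.19, adjusted p = 0.016), beside 15.4% of all genes, 8.1% higher and 7.29% lower. The call of Uhrf1 was lost with library size as the only scaling, with only the 2 groups in the fit, and without 8 d replicate 1 or 3 or 11 d replicate 1. The call of Cdc45 was lost without 8 d replicate 3 or 14 d replicate 1 or 3. The median log2 change of the 42 genes was 0.15 in the first interval and -0.14 in the second.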

How the data were processed

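The authors' deposited tables hold raw counts per gene symbol, 12 tables of 23282 lines. The submitters' processing notes name TopHat and the mm10 build. Aligner version, counting program, annotation and use of strand were not given in the sources used here. Library preparation, per the labels, started from 1.3 µg of total RNA per sample, with a directional kit. Totals ran from 19624554 to 27765751 counts per library. Rn45s took 1.71% to 6.27% of counts and haemoglobin genes 0.253% to 1.80%. Lines of 35 repeated symbols were summed.

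One quasi-likelihood model over all 12 samples was fitted by edgeR 4.0.16 (R 4.3.3), using TMM scaling and the default filter (16484 of 23238 genes kept). A call is an adjusted p (Benjamini-Hochberg) under 0.05. CPM use the scaled library sizes, and the SE is the absolute log2 change over the square root of F. Exon lengths and overlaps come from GENCODE M21, promoter windows from RefSeq. The method was tested on simulated data.

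The members and lists were chosen with earlier results of these data known. Values in every library are given for the 2 genes of each role with the lowest joint p, the MCM genes, Pcna and genes called against the majority, and list members are named by lowest joint p. Cdc45, the other E2F genes and the ratios were added after the values were seen. Alternatives were other scalings, filters, DESeq2 1.42.0, limma-voom (limma 3.58.1), only the groups compared, a replicate block, and each library left out. No 2 libraries of a group agreed within sampling noise.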

Additional observations from a re-analysis of the deposited data

Results flagged for a closer look

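The change from unirradiated lung differed between 2 times, by the test of those times against each other, for these genes named above (log2, edgeR). From 8 d to 11 d Uhrf1 differed by 0.66 (adjusted p = 0.03), Dck by 0.86 (adjusted p = 0.034) and Tpx2 by 0.78 (adjusted p = 0.043). From 8 d to 14 d 6 genes were higher at the later time: Cdc45 by 0.75, Dbf4 by 0.67, Dck by 0.69, Dna2 by 1.01, Mki67 by 1.06 and Tpx2 by 0.59. From 8 d to 14 d 4 genes were lower at the later time: Ccnd1 by a log2 change of -0.87, Cdkn1a by -0.88, Cdkn1c by -0.74 and Timeless by -0.60. Groups of 3 libraries are too small for an outlier test.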

How the results depend on the processing

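With each library left out in turn, the number of replication genes called ran from 10 to 17 at 8 d and from 21 to 25 at 11 d. At 14 d it ran from 17 to 21, and in the joint test from 15 to 24. Between 8 d and 11 d the range was 0 to 2, between 8 d and 14 d 0 to 1, and it was 0 each time between 11 d and 14 d. Under the other alternatives 8 d had 16 to 18 calls, 11 d 24 to 25, and 14 d 19 to 21. Between 8 d and 11 d library size alone and a fit of only the 2 groups gave 0 calls in place of 1, and DESeq2 gave 2, adding Cdc45. Between 8 d and 14 d DESeq2 gave 2, adding Rrm2. The cause of these differences was not tested. Under the other scalings the median log2 change of all genes reached 0.07 at most.

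Of the changes of the named genes, 3 turned sign, all near 0. Over the 42 genes, 39 were positive at 8 d, 38 with RLE scaling and 40 with library size alone. Gmnn at 8 d was -0.000795 with RLE scaling, -0.00678 without a filter, -0.00175 by DESeq2, -0.00553 by limma-voom and -0.000785 with a replicate block, and -0.191 to 0.115 with each library left out. Timeless at 11 d was -0.0277 with library size alone and -0.00208 without a filter, and -0.0321 to 0.0445 with each library left out. Pcna at 8 d was -0.0266 to 0.312 with each library left out.

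Samples with the same replicate number did not deviate together in all groups: of 18 pairs, 6 had a correlation above 0.1, and the range was -0.438 to 0.361. Pairs with different numbers ran from -0.524 to 0.572. Between 8 d and unirradiated libraries the same-number pairs had correlations of 0.179, 0.128 and 0.166. The different-number pairs of these 2 groups had -0.13 to -0.046. With a replicate block 16 genes were called at 8 d (without E2f1), 25 at 11 d, 21 at 14 d (with Lig1), 1, 0 and 1 between the irradiated times, and 21 jointly. Counts as low as those of Orc1 limit what could be called.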

Other observations

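Some libraries were often at the edge of their group over the 42 genes. Library 11 d replicate 1 was the highest of its group for 34 genes, 14 d replicate 2 the lowest for 27, 14 d replicate 3 the highest for 24, and 8 d replicate 2 the highest for 22 and the lowest for 12. The median over the 42 genes of the log2 ratio to the control mean was 0.40, 0.50 and 0.30 in the 8 d libraries, 0.73, 0.54 and 0.48 at 11 d, and 0.45, 0.32 and 0.51 at 14 d. In the controls it was -0.06, -0.03 and 0.10.

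Timeless and Tipin encode partners that protect the fork. Timeless averaged 31.9 ± 1.3 CPM in controls (SD, n = 3) and 36.3 ± 1.33 at 8 d. Its later means were 32.2 ± 1.71 CPM at 11 d, then 24 ± 2.54 at 14 d. Tipin, chosen after its values were seen, averaged 25 ± 3.62, 34.7 ± 9.14, 29.5 ± 1.4 and 22.1 ± 4.48 CPM in the same order of groups. Both were lower at 14 d than at 8 d, with log2 changes of -0.60 (SE 0.12) and -0.65 (SE 0.19), the opposite direction to Mki67 between the same groups.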
